A study of Mus musculus with 3 samples.

Results

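Crabp1 and Crabp2 encode the cellular retinoic acid binding proteins, and both genes were found among the 50507 genes of the deposited count table. The 2 genes were chosen by name with their levels in these libraries already known, so their values are given as a description and with no test. Crabp1 was read in 128 of 129 libraries with 6597 counts in all, and Crabp2 in 38 of 129 libraries with 54 counts in all. Over the days of reprogramming the mean level of Crabp1 was lowest at Day02 (173 to 319 CPM, counts-per-million) and highest at Day06 (436 to 940 CPM), while Day00 overlapped with both. Among cells transfected with siRNAs its mean ran from 203 to 1593 CPM, with the libraries labelled siEp300, siPou5f1 and siWdr5 at the low end and below every library of the non-targeting control.

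Retinol is taken up from the circulation by carrier and receptor proteins and oxidised inside the cell, first by alcohol and retinol dehydrogenases and then by retinaldehyde dehydrogenases, to retinoic acid. Retinoic acid binds nuclear receptors of the RAR family, which pair with RXR receptors on DNA and exchange corepressors such as NCOR1 for coactivators such as EP300 and CREBBP. CRABP1 holds retinoic acid in the cytoplasm and is linked to its breakdown by CYP26 enzymes, whereas CRABP2 carries it to the receptors in the nucleus. Crabp1 is known as a gene of the embryonic mesenchyme and the neural crest.

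The study asked which regulators of chromatin and transcription matter early on, as mouse embryonic fibroblasts (MEFs) are reprogrammed to pluripotency. The cells were wild-type primary MEFs of the BL6 strain at passage 2. All groups, controls included, carried the tet-STEMCCA lentivirus, an inducible cassette of Oct4, Sox2, Klf4 and c-Myc, with rtTA, both added at a multiplicity of infection of 1. Induction was with 2 µg/mL doxycycline in medium with LIF, 10% serum, 3 µM chiron, 0.25 µM of the TGFb inhibitor Alk5i and 50 µg/mL ascorbic acid. Per the study, adding this medium starts reprogramming and counts as day 0, so that Day00 stands for cells at the start of induction. Not every cell of such a culture carries the virus or becomes a colony, so the RNA is that of a mixture, and fewer cells of a type cannot be told apart from less RNA per cell. Untransfected cells gave the time course, from Day00 to Day06 with 3 libraries a day. Transfected cells received 40 nM of pooled siRNAs, 1 target gene at a time and 33 genes in all. Control cells received an siRNA without a target (nt) or were taken through the transfection alone (Mock). All of these were plated again after 24 hours for induction, and were read on day 6 per the methods of the study.

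RNA was read by CEL-Seq2, which counts the 3′ ends of transcripts by unique molecular identifiers, as 3 sequenced pools that each hold the libraries of 1 replicate. The condition of a library was read from its column name. The 127 libraries with at least 10000 counts were used: 21 from untransfected cells by day, 98 with siRNAs and, as controls, 3 nt and 5 Mock libraries, with 29656 to 235292 counts each. Of the 2 libraries left out, 1 of Mock held 6403 counts with no Crabp1, which allows up to 469 CPM of all counts (3 counts), and 1 of siMtf1 held 7981 counts with 4 of Crabp1. Fibroblast markers were abundant at Day00, where 10 of 10 had a count over the series and their summed level was 5710 to 7710 CPM. Per the study, the siRNAs were transfected 3 times over and the sequencing replicates were independent. The labels do not say whether these came from separate MEF cultures, and p-values measure the spread between these libraries. Most targets looked up were weakly read. Wdr5 had 7 counts in siWdr5 and 9 in nt, and Pou5f1 had 0 counts in siPou5f1 and 4 in nt. For sip53, siWhsc1l1, siBard1 and siBrca1 the target had 5, 6, 0 and 4 counts in its own libraries and 8, 10, 2 and 2 in nt. Per depth, Trp53 was at 26.9 CPM of all counts in sip53 and 26.8 in nt, and Brca1 at 20.8 in siBrca1 and 6.7 in nt, so neither was lower. Ncor1 had 12 counts in siNcor1 and 22 in nt, and Mtf1 had 0 in siMtf1 and 3 in nt. A lower level of these targets was therefore not shown at this depth. Hat1 was better read and was not lower, with 106 counts in siHat1 and 71 in nt, or 242 and 238 CPM of all counts. Ep300 had 17 counts in the libraries labelled siEp300 (4, 4 and 9 in replicates 1, 2 and 3) and 3 in nt, so its own transcript goes against that label. Directions given for any siRNA, and above all for siEp300, siHat1, siBrca1 and sip53, rest on the column names. The RT-qPCR that the study ran on Wdr5, Brca1 and Bard1 in other samples was not used here.

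Crabp1 (ENSMUSG00000032291) lies on the plus strand of chromosome 9, from 54764748 to 54773110 on GRCm38 in the GENCODE vM21 annotation. Crabp2 (ENSMUSG00000004885) lies on the plus strand of chromosome 3, from 87948666 to 87953376. Each has 4 exons, and 0 annotated genes overlap either. The coding sequences, 411 and 414 bases long, were identical at 70.3% of aligned bases. Even so, 0 other genes shared a run of 30 transcript bases with Crabp1 or with Crabp2, so that an exact match of that length points to a single gene. The start region of Crabp1, the member with levels that could be compared, is shown because the siRNAs target regulators of transcription and chromatin. It runs from 250 bases before the start of transcription to 50 bases after it (chr9:54764498-54764797, plus strand, GRCm38.p6, from RefSeq), with each match to GGGCGG or its reverse complement CCGCCC, the core of a GC box, in capitals.
Crabp1 start region: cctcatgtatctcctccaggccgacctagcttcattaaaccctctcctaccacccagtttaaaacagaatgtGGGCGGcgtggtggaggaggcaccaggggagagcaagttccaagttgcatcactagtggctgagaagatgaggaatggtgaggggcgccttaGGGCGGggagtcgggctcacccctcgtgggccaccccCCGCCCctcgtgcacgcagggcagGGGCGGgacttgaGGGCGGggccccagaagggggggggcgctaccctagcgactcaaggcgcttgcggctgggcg
The window holds 5 GC box cores, 4 on the plus strand and 1 on the other, and 2.71% of 32851 mouse start regions of the same length hold as many. At least 1 core is found in 35.7% of them. Of the bases, 65.0% were G or C, against a median of 52.7% over all start regions. Half-sites of the retinoic acid receptors were searched on both strands in 4 spellings, and each had 0 matches in the window. The letters AGGTCA are found in 16.3% of all start regions. The spelling AGTTCA is found in 14.0%. The spelling GGGTCA is found in 13.7%. The last, GGTTCA, is found in 10.4%, and at least 1 of the spellings in 43.7%. The letters TATAAA also had 0 matches, against 13.6% of start regions with one. These matches describe the letters of the window only.

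The time course asks how transcripts move as fibroblasts begin to reprogram. Levels are CPM of the tested genes, with library totals scaled by the trimmed mean of M-values (TMM). At Day00 the 3 libraries held 492.6, 296 and 405.5 CPM of Crabp1 in replicates 1, 2 and 3 (mean 398 ± 98.3, SD, n = 3). The level was 340 ± 65.2 CPM at Day01 (298, 415 and 307). At Day02 it was 254 ± 74.0 CPM (269, 319 and 173), the lowest mean of the 7 days. The ranges of Day00 and Day01 overlapped, and so did those of Day00 and Day02. At Day03 the libraries held 157, 397.5 and 290.3 CPM (mean 282 ± 120.3), and at Day04 370.0, 465.7 and 261 CPM (mean 366 ± 102). At Day05 they held 482, 650.4 and 477 CPM (mean 536 ± 98.7), all above the libraries of Day04. At Day06 they held 534, 940 and 436 CPM (mean 637 ± 267). Pooled by days, the 9 libraries of Day01 to Day03 lay between 157 and 415 CPM and the 9 libraries of Day04 to Day06 between 261 and 940 CPM, so that the sets overlapped.

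The fitted log2 difference of Crabp1 was −0.76 ± 0.28 (SE) for Day02 against Day00, 0.59 ± 0.23 for Day05 against Day04 and 0.53 ± 0.24 for Day06 against Day00. The last of these was carried by replicate 2. The log2 difference was 1.58 there and 0.11 and 0.10 in replicates 1 and 3, and without replicate 2 the fitted value was 0.17. For scale, edgeR called 22.2% of the 3013 genes tested between Day06 and Day00 and 11.6% between Day02 and Day00, which says nothing of Crabp1, since it was chosen with these values known. Over the same days the summed fibroblast markers went from a mean of 6720 CPM at Day00 to 3450 CPM at Day03 and 2900 CPM at Day06. Members went both ways in mean between Day00 and Day06, with Col1a2 at 2360 and 748 CPM but Dcn at 22.4 and 221, Lum at 5.52 and 123 and Thy1 at 304 and 377. The 6 epithelial markers, all with a count, summed to 20.5 to 24.8 CPM at Day00 and 74.2 to 253 CPM at Day06, with Cdh1, Epcam, Krt18 and Cldn4 at 0 on Day00. Of the other members, the mean of Krt8 was 6.84 CPM at Day00 and 39.3 at Day06. Krt19 went the other way, from 15.3 to 4.54 CPM. The 5 markers of neural and neural crest cells, a tissue in which Crabp1 is known, summed to 82.8 to 191 CPM at Day00 and 198 to 312 CPM at Day06. The 4 blood markers, mostly Lyz2, summed to 124 to 205 CPM at Day00 and 18.1 to 89.0 CPM at Day06. The 3 endothelial markers summed to 0 CPM on both days, with Kdr at 18 counts, Pecam1 at 8 and Cdh5 at 0 over the series. The 3 muscle markers summed to 0 to 20.5 CPM at Day00 and 0 to 6.82 CPM at Day06, with Des at 37 counts, Myog at 2 and Myod1 at 0. The 3 keratinocyte markers summed to 0 CPM at Day00 and 0 to 14.8 CPM at Day06. The part of these cells in the levels of Crabp1 was not tested.

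The control transfections stood above the time course in mean level. The nt libraries held 1132, 613 and 768 CPM of Crabp1 (mean 838 ± 266, n = 3), and the ranges of nt and Day06 overlapped. The fitted log2 difference of nt against Day06 was 0.48 ± 0.21 (SE), with 1.05, −0.59 and 0.78 in replicates 1, 2 and 3. It was 0.11 with totals in place of TMM, a scaling that moved the median of all genes in that comparison by −0.363, and 0.09 with the deposited log2 values. Mock libraries held 1084 and 515 CPM in replicate 1, 2220 and 894 CPM in replicate 2 and 552 CPM in the library of replicate 3 that was used (mean 1053 ± 694 over 5 libraries from 3 replicates). The labels do not say whether the Mock libraries of 1 replicate came from separate transfections, so the 5 may overstate the replication, also in the fits against nt. Their range enclosed that of nt, and the fitted log2 difference of Mock against nt was 0.21 ± 0.19, with −0.58, 1.17 and −0.46 by replicate. Without replicate 2 it was −0.44, and with the deposited log2 values it was −0.36.

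**Figure D1:**
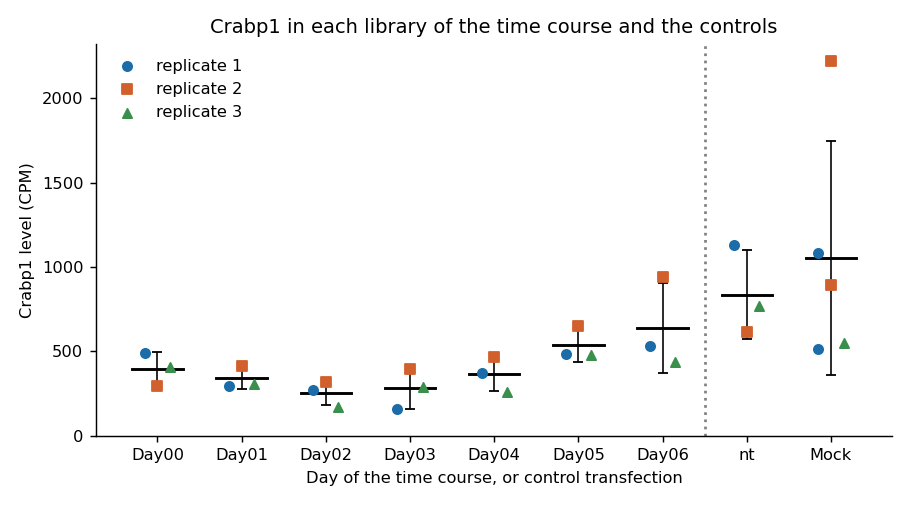
Crabp1 level in CPM (vertical axis) in each library of the time course, of nt and of Mock (horizontal axis), with the colour and shape of a point for the replicate, a line at the mean and a bar of 1 SD. The means go from 398 CPM at Day00 through 254 CPM at Day02 to 637 CPM at Day06, and the Mock libraries spread from 515 to 2220 CPM.

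Libraries of the same name and pool differed in Crabp1. In replicate 1 the Mock columns held 42 of 49713 counts and 15 of 38925, a ratio of 2.19 with an exact 95% interval of 1.19 to 4.26. In replicate 2 they held 77 of 42457 counts and 36 of 49873, a ratio of 2.51 with an interval of 1.67 to 3.84. These intervals cover counting error only and are given as a description. As a share of all counts, Crabp1 stood at 675 CPM for the pool of replicate 1, at 748 CPM for that of replicate 2 and at 531 CPM for that of replicate 3.

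The siRNA screen asks which regulators, when targeted, alter the state of the cells on day 6. Mean Crabp1 over the 33 siRNAs ran from 203 to 1593 CPM with a median of 877 CPM. Of these means, 21 lay above that of nt and 12 below it. In the full order of 42 conditions, nt was in place 23, and 40 of the 41 neighbouring pairs overlapped in range, the exception being Day05 and siWdr5. Mean Crabp1 was above the highest library of the time course (940 CPM) for 12 siRNAs. With the replicate removed, 82.5% of the variance of log2 Crabp1 among transfected libraries lay between conditions, place 35 of the 3013 genes, whose median was 42.4%. Over the days the share was 67.2% (place 715, median 50.7%). Crabp1 was chosen with these values known, so its places are a description and no evidence of an unusual response. Counting noise also lowers this share in weakly read genes, and Crabp1 was well read, in place 138 by mean CPM.

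At the low end stood the libraries labelled siEp300. Ep300 encodes a histone acetyltransferase that also serves the retinoic acid receptors as a coactivator. These libraries held 172, 255 and 181 CPM of Crabp1 (mean 203 ± 45.9, n = 3), from 12, 18 and 40 counts, and their range did not overlap that of nt. Each was the lowest of all transfected libraries of its pool, of 36, 36 and 34 libraries. The fitted log2 difference against nt was −2.02 ± 0.24 (SE), 0.242 times the mean of nt, with −2.54, −1.18 and −1.93 by replicate. Between these groups edgeR called 5.68% of genes. The libraries labelled siPou5f1, against the cassette factor Oct4, held 360.2, 497 and 315.5 CPM (mean 391 ± 94.4), below the range of nt. Their log2 difference was −1.12 ± 0.25, with −1.58, −0.29 and −1.21 by replicate, and 5.77% of genes were called. The siWdr5 libraries, against a core subunit of the complexes that methylate lysine 4 of histone H3, held 436, 441 and 437 CPM (mean 438 ± 2.57), again below the range of nt. The log2 difference was −0.92 ± 0.22, with −1.32, −0.45 and −0.78 by replicate, in a comparison in which 27.2% of genes were called.

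These siRNAs alone had every library under the range of nt, and with TMM they alone were lower than nt in each of the 3 replicates. With RLE or totals siTdrd7 was lower in each replicate too, and with the deposited log2 values so were siTdrd7, siApex1, siNcor1 and siPrkdc. The 3 of them remained below that range with size factors (RLE), with totals, with the deposited log2 values and without any 1 replicate. Without replicate 2, where the nt library was 33rd of 36 transfected libraries in Crabp1, 9 siRNAs lay below the nt range and 7 in place of 21 had a mean above nt. The summed pluripotency markers (6 of 6 with a count over the series, 0 tested) had a lower mean than nt in all 3. They were at 4.52 to 28.4 CPM in siEp300, 0 to 23.7 in siPou5f1 and 0 to 28.4 in siWdr5, against 8.17 to 117 in nt, so that the ranges overlapped. Their r with Crabp1, over condition means that share pools and scaling, was 0.50 over the 42 conditions, 0.71 over the 7 days and 0.19 over the 35 transfected conditions. Such values were not particular to this list. In the same scopes r was 0.47, 0.75 and 0.01 for epithelial markers and −0.26, −0.23 and 0.03 for fibroblast markers. For neural and neural crest markers it was 0.12, 0.6 and 0.02. Over the days it was 0.86 for keratinocyte, −0.5 for endothelial, −0.28 for blood and −0.27 for muscle markers, most of them barely read. The sum of fibroblast markers was 2570 to 3920 CPM in siEp300, 1030 to 1370 in siPou5f1 and 4890 to 5680 in siWdr5, against 1900 to 2830 in nt. The epithelial sum was 85.8 to 184, 56.3 to 142 and 26.4 to 56.9 CPM in the same order, against 106 to 150 in nt. The neural and neural crest sum was 57.2 to 298, 142 to 248 and 106 to 190 CPM, against 135 to 196 in nt. The part of these cell types in the levels was not tested.

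At the high end, sip53 libraries, against the tumour suppressor p53, held 1722, 2025 and 1031 CPM (mean 1593 ± 509.5, n = 3), and their range overlapped that of nt. The log2 difference against nt was 0.86 ± 0.20 (SE), and it was 0.59, 1.68 and 0.41 by replicate. edgeR called 1.96% of genes in this comparison. The siWhsc1l1 libraries, against a methyltransferase of histone H3 listed as Nsd3 in the table, held 1248, 1358 and 1386 CPM (mean 1331 ± 73.0), the single siRNA with every library above nt. The log2 difference was 0.71 ± 0.20, with 0.14, 1.11 and 0.83 by replicate, and 1.76% of genes were called. By the deposited log2 values, 0 siRNAs had every library above nt and 3 were higher than nt in every replicate. These were siHat1, siTead2 and sip53, without siWhsc1l1. By counts, 7 siRNAs were higher than nt in every replicate, among them sip53, siWhsc1l1, siTead2, siMyc, siCbx7 and siJarid2.

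The other siRNAs reported are given by the kind of factor they target, as mean CPM of Crabp1 ± SD of 3 libraries, and each of them overlapped with nt. Among Polycomb proteins and their partners, siCbx7 had 1138 ± 153, siJarid2 1127 ± 166 and siPhf1 939 ± 220.

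Among methyltransferases of histones and other proteins, siSetdb1 had 954 ± 364, siPrmt2 932 ± 293, siPrmt7 877 ± 180.1, siKmt2d 727 ± 154, siPrmt5 710.3 ± 123 and siKmt2e 681 ± 160.2. Among the factors of histone acetylation and its readers, siBrd8 had 924 ± 207, siHdac1 869 ± 88.0, siBptf 862 ± 184, siHat1 843 ± 132, siEny2 785 ± 86.6 and siNcor1 722 ± 136. NCOR1 is the corepressor that binds retinoic acid receptors without ligand, and the siNcor1 libraries, at 620.5 to 877 CPM of Crabp1, lay within the range of nt.

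The transcription and cell cycle factors ran from siTead2 (1160 ± 229) and siMyc (1151 ± 323) through siCdk1 (1083 ± 393) and siMtf1 (979 ± 185, n = 2) to siIrx1 (697 ± 226). Among tudor domain proteins, siTdrd3 had 953 ± 256 and siTdrd7 574 ± 138. Among the others, siSet had 974.8 ± 200.1, the repair enzyme siApex1 864 ± 209 and the DNA-dependent kinase siPrkdc 616 ± 99.6. The siBard1 and siBrca1 libraries target the partners of a ubiquitin ligase of DNA repair that the study followed up with Wdr5. The siBard1 libraries held 1022, 908 and 791 CPM (mean 907 ± 115), with a log2 difference from nt of 0.11 ± 0.20 that was −0.06 without replicate 2. The siBrca1 libraries held 703, 935 and 565 CPM (mean 734 ± 187), with a log2 difference of −0.23 ± 0.22. Both groups overlapped with nt.

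**Figure D2:**
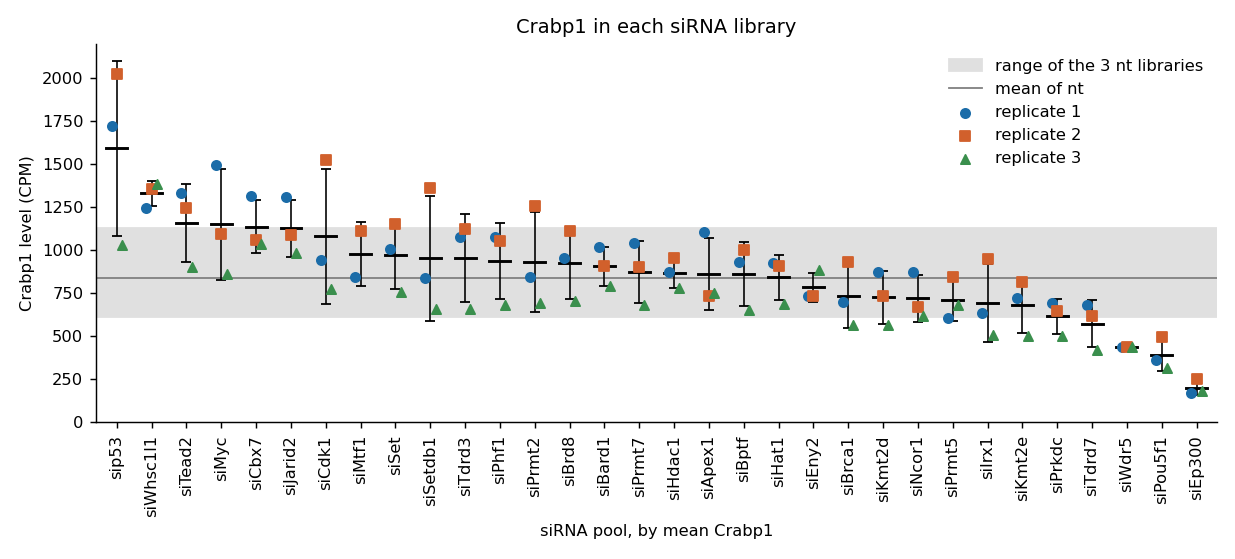
Crabp1 level in CPM (vertical axis) in each library of the siRNAs reported (horizontal axis, ordered by mean), with a line at the mean, a bar of 1 SD and a grey band over the range of the 3 nt libraries (613 to 1132 CPM). The libraries labelled siWdr5, siPou5f1 and siEp300 lie below the band in every replicate, and those of siWhsc1l1 lie above it.

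Crabp2 was close to the limit of detection throughout. Of the 129 libraries, 91 held 0 counts, 28 held 1, 5 held 2, 4 held 3 and 1 held 4. Its share was 5.11 CPM of all counts with an exact Poisson 95% interval of 3.84 to 6.67. In the time course 4 of 21 libraries had a count, 5 counts in all and 2.67 CPM of all counts (interval 0.867 to 6.23). Among transfected libraries 34 of 108 had a count, 49 in all and 5.63 CPM of all counts (interval 4.17 to 7.45). The intervals of the 2 classes overlap, and they cover counting error only. For the pools of replicates 1, 2 and 3 the share was 5.45, 2.57 and 6.28 CPM of all counts, and the pool of replicate 3 was the deepest, with a median of 127079 counts per library against 64227 and 63122.

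Summed over its libraries, 14 of the 42 conditions had 0 counts of Crabp2, 27 had 1 to 3 and 1 had more. The condition above 3 was siHat1, against a histone acetyltransferase, with 2, 0 and 4 counts in replicates 1, 2 and 3, or 13.7 CPM of all counts. Its library of replicate 3 was deep, with 214087 counts. By mean CPM the highest siRNAs were siMtf1 (0 and 3 counts in replicates 1 and 2), siNcor1 (2, 0 and 1) and siHat1, while 10 siRNAs shared the lowest value, 0. Each nt library held 1 count, which is 10.1 CPM of all counts with an interval of 2.07 to 29.4. The siEp300 and siPou5f1 libraries held 3 counts each, all in replicate 3. Day02, siCdk1 and siIrx1 also summed to 3 counts, and Mock, siEny2, siKmt2d, siPrmt2 and siSetdb1 to 2. A total of 14 conditions held 1 count each, siWdr5, siBrca1, sip53 and siWhsc1l1 among them. Among those at 0 were Day00, Day01, Day04, Day06, siApex1, siBard1, siBptf, siHdac1, siJarid2, siMyc, siPrkdc, siTdrd3 and siTdrd7, where 3 counts would allow 8.87 to 21.3 CPM of all counts. Apart from siHat1, every condition summed to 3 counts or fewer, so that no fold of Crabp2 is given between them, and a difference was not detectable at this depth.

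**Figure D3:**
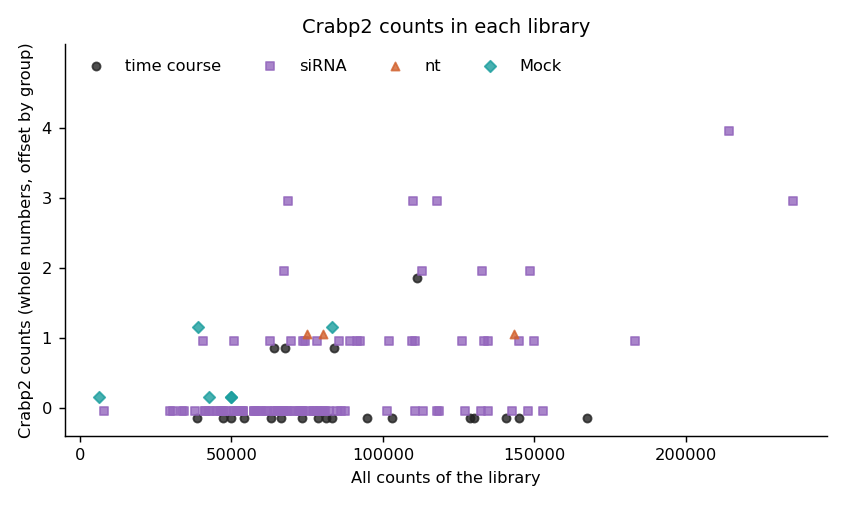
Counts of Crabp2 (vertical axis, whole numbers with a small offset by group) against all counts of the library (horizontal axis) for the 129 libraries, by kind of library. Of these, 91 lie at 0, and the 1 library with 4 counts is among the deepest.

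Genes with a pattern like that of Crabp1 were ranked by Pearson's r over condition means of log2 CPM with the replicate removed. The points share pools, depths and scaling, and the values are a description. Over all 42 conditions the nearest were H2afz, a histone H2A variant (r = 0.743), Nsmce4a, of the SMC5/6 complex (0.737), Agtr2, an angiotensin II receptor (0.729), the small nucleolar RNA host Snhg1 (0.722) and Gm4468 (0.722). Over the 7 days they were Gm13611 (0.957), H2afz (0.918), Zmat2 (0.91), Gm10031 (0.909) and Prdx2, a peroxidase (0.908). Leaving out replicate 2 kept 0 of these 5 genes. Over the 35 transfected conditions they were Echdc2 (0.645), Plin2, a coat protein of lipid droplets (0.572), Ifitm1, an interferon-induced membrane protein (0.547), Nsmce4a (0.53) and Gm4468 (0.522), and ranks in place of values kept 1 of the 5. Gm4468, Gm13611 and Gm10031 are predicted genes, which can share reads with other copies. Crabp1 and Crabp2 had an r of 0.032 over all conditions, −0.568 over the days and −0.059 over the transfected conditions, which carry little at the counts of Crabp2.

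The wider retinoid pathway was described with a list of 64 genes, and those of its genes that passed a filter on low counts were tested, with adjustment over all 3013 genes tested. The list was chosen with earlier results of these data known, so its p-values are no independent evidence. Of the 64, 56 had a count and 8 passed the filter. The receptors were below that filter: 7 of 7 had a count and 0 of 7 were tested. Rarg had 122 counts over all libraries, Rxra 60, Rxrb 44, Rarb 29, Ppard 23, Rara 17 and Rxrg 3. Of the breakdown enzymes, Cyp26b1 had 472 counts and Cyp26a1 and Cyp26c1 had 0, and none of the 3 was tested. Of 3 storage genes, Dgat1, which esterifies retinol among other substrates, led with 86 counts. Of 18 genes of synthesis and oxidation, 17 had a count and 2 were tested, Adh5 (1255 counts) and Adh7 (2835). Below the filter were the retinol dehydrogenases Rdh14 (292) and Rdh10 (271) and, of the enzymes that make retinoic acid, Aldh1a1 (326), Aldh1a3 (20) and Aldh1a2 (18). Of 7 binding and transport genes besides the CRABPs, 4 had a count. The 1 tested was Fabp5, a fatty acid carrier that can deliver retinoic acid to PPARD (718). Of 11 coregulators, 5 were tested. Of 15 genes known to respond to retinoic acid, 13 had a count and 0 were tested, with Meis2 (504), Nr2f2 (298) and Nr2f1 (156) the best read of them.

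Between Day06 and Day00, edgeR's quasi-likelihood test with Benjamini-Hochberg adjustment called 1 of the 8 genes, Adh7, where 22.2% of all genes were called. Adh7 is an alcohol dehydrogenase that oxidises retinol. It was at 20.5, 42.3 and 24.8 CPM at Day00 and at 341, 271 and 286 CPM at Day06, with no overlap. It rose by a log2 fold change of 3.37 ± 0.49 (SE, adjusted p = 3.67e-09). It was called under every alternative run. The step from Day04 to Day05 was the one called (log2 fold change 1.75 ± 0.31, adjusted p = 1.76e-05), from 123, 132 and 79.8 CPM to 444, 305 and 354 CPM. In that step 4.78% of genes were called. In the other steps between neighbouring days Adh7 was not called. These steps called 9.89% of all genes from Day00 to Day01, 4.81% from Day01 to Day02, 2.82% from Day02 to Day03, 11.9% from Day03 to Day04 and 7.87% from Day05 to Day06. Against Day00, Adh7 was higher and called on Day02 (log2 fold change 2.05 ± 0.60, adjusted p = 0.0107), Day03 (1.99 ± 0.61, adjusted p = 0.0179), Day04 (1.91 ± 0.59, adjusted p = 0.0106) and Day05 (3.67 ± 0.47, adjusted p = 9.01e-12), where 11.6%, 10.9%, 18.7% and 31.9% of all genes were called. The calls of Day02 and Day04 were lost without replicate 1 or 3 and that of Day03 without replicate 2 or 3, with log2 fold changes of 1.52 to 2.13, while that of Day05 held without any 1 replicate. The call of Day03 was also lost without the filter (adjusted p = 0.155). On Day04 Tbl1x, a subunit of the NCOR complex, was called as well. It was at 287, 212 and 215 CPM at Day00 and at 89.7, 172 and 94.3 CPM at Day04, with no overlap, and fell by 1.04 ± 0.38 on the log2 scale (adjusted p = 0.0412). Without 1 replicate its log2 fold change was −1.28 to −0.74, with an adjusted p of 0.073 to 0.292. The adjusted p was 0.165 without the replicate block, 0.665 without the filter and 0.22 with limma. The median log2 fold change of the 8 genes for Day06 against Day00 was −0.093, beside 0.048 for all genes. A test for any difference among the 7 days called 3 of the 8 genes, Adh7, Crebbp and Tbl1x (adjusted p = 5.36e-17, 0.00569 and 0.0141), against 42.5% of all genes. Without any 1 replicate Adh7 was still called, whereas the adjusted p was 0.0511 to 0.123 for Crebbp and 0.0904 to 0.147 for Tbl1x. Without the replicate block it was 0.144 for Tbl1x. Both lost the call without the filter (0.204 for Crebbp and 0.527 for Tbl1x) and with limma (0.194 and 0.286). Crebbp, a histone acetyltransferase related to EP300, was at 280, 199 and 246 CPM at Day03 and at 67.3, 40.5 and 109 CPM at Day04, where it fell by 1.66 ± 0.42 on the log2 scale (adjusted p = 0.00265). Without 1 replicate its log2 fold change was −2.14 to −1.42. The call was lost when replicate 1 was left out (adjusted p = 0.0528) or replicate 2 (0.0533), without the filter (0.0741) and with limma (0.0918). Tbl1x fell by 1.21 ± 0.37 in the same step (adjusted p = 0.0157), in which 11.9% of genes were called. Without 1 replicate its log2 fold change was −1.36 to −1.07, with an adjusted p of 0.0713 to 0.135. The adjusted p was 0.0958 without the replicate block, 0.391 without the filter and 0.318 with limma.

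Between nt and Day06 1 of the 8 genes was called, against 26.6% of all genes (15.6% as higher and 11% as lower). Tbl1x was at 167, 105 and 24.5 CPM in nt and at 134, 289 and 218 CPM at Day06, so that the ranges overlapped. It fell by 1.36 ± 0.43 on the log2 scale (adjusted p = 0.0106), and without the replicate block the adjusted p was 0.0651. Without replicate 3 the log2 fold change was −0.63 (adjusted p = 0.431), and without replicate 2 it was −1.24 (adjusted p = 0.103). The call was also lost without the filter (adjusted p = 0.161) and with limma (0.163). The median log2 fold change of the 8 genes was −0.249, beside −0.013 for all. Between Mock and nt edgeR called 0 of the 8 genes at an adjusted p under 0.05 and 1.56% of all genes (1.03% as higher and 0.531% as lower), with 1 of the 8 at an unadjusted p under 0.05, and DESeq2 called 0 of 8 and limma 0 of 33.

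In siWdr5, 3 of the 8 genes were called and all 3 were higher than in nt, where 27.2% of all genes were called in either direction and 12.2% as higher. Tbl1xr1, the paralog of Tbl1x in the NCOR complex, was at 106, 85.3 and 142 CPM against 16.7, 29.9 and 32.7 CPM in nt, with no overlap, and rose by a log2 fold change of 1.95 ± 0.61 (adjusted p = 0.00979). Crebbp was at 66.0, 270.0 and 142 CPM against 99.9, 29.9 and 32.7 CPM, with overlap, and rose by 1.66 ± 0.51 (adjusted p = 0.00875). Tbl1x was at 158, 185 and 228 CPM in siWdr5, with a range that overlapped that of nt, and rose by 1.21 ± 0.43 (adjusted p = 0.0262, and 0.0995 without the replicate block). Reads shared by Tbl1x and Tbl1xr1 were not looked for. The median log2 fold change of the 8 genes was 0.756, beside 0.003 for all genes. Of the 3 calls, that of Tbl1xr1 was kept without replicate 2 (log2 fold change 2.06, adjusted p = 0.0472) and not without replicate 1 (1.82, adjusted p = 0.0626), and without replicate 3 the gene did not pass the filter. Crebbp had a log2 fold change of 0.86 without replicate 2 (adjusted p = 0.37) and 1.44 without replicate 3 (adjusted p = 0.131). Tbl1x had 1.31 without replicate 2 (adjusted p = 0.0848) and 0.41 without replicate 3 (adjusted p = 0.64). Without the filter all 3 lost the call (adjusted p = 0.112 to 0.284), and the limma fit on the deposited log2 values called 0 of 33. In this comparison the fibroblast markers summed to 4890 to 5680 CPM in siWdr5 and to 1900 to 2830 CPM in nt, and their part in these calls was not tested.

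In siBard1 edgeR called 0 of the 8 genes and 10.3% of all genes (5.54% as higher and 4.78% as lower), with 1 of the 8 at an unadjusted p under 0.05, and DESeq2 called 0 of 8 and limma 0 of 33. The median log2 fold changes were 0.215 for the 8 genes and −0.024 for all. In siBrca1 edgeR called 0 of the 8 genes and 4.22% of all genes (2.49% as higher and 1.73% as lower), with 0 of the 8 at an unadjusted p under 0.05, and DESeq2 called 0 of 8 and limma 0 of 33. The medians were 0.121 for the 8 genes and −0.003 for all. In sip53, where 1.96% of all genes were called, Adh7 was the 1 gene of the 8. It was at 126, 57 and 265 CPM against 183, 374 and 564 CPM in nt, with ranges that overlapped and each replicate lower, and it fell by 1.21 ± 0.34 on the log2 scale (adjusted p = 0.0343). Without 1 replicate its log2 fold change was −1.43 to −0.99, with an adjusted p of 0.0554 to 0.267. The call was also lost without the replicate block (0.141), without the filter (0.115), with RLE (0.0562), with every library (0.0635) and with limma (0.0843). Over all 33 siRNAs, 4 of 264 tests of a pathway gene against nt were called, which is 1.52%, beside 2.57% of the tests over all genes. All of these share the 3 nt libraries. A test for any difference among the 35 transfected conditions called 3 of the 8 genes against 45.1% of all genes: Crebbp (adjusted p = 0.000221), Adh7 (0.000965) and Tbl1x (0.00533). Without the replicate block the adjusted p was 0.0776 for Adh7 and 0.127 for Tbl1x, and without replicate 2 it was 0.158 for Tbl1x. With limma it was 0.148 for Crebbp.

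**Figure D4:**
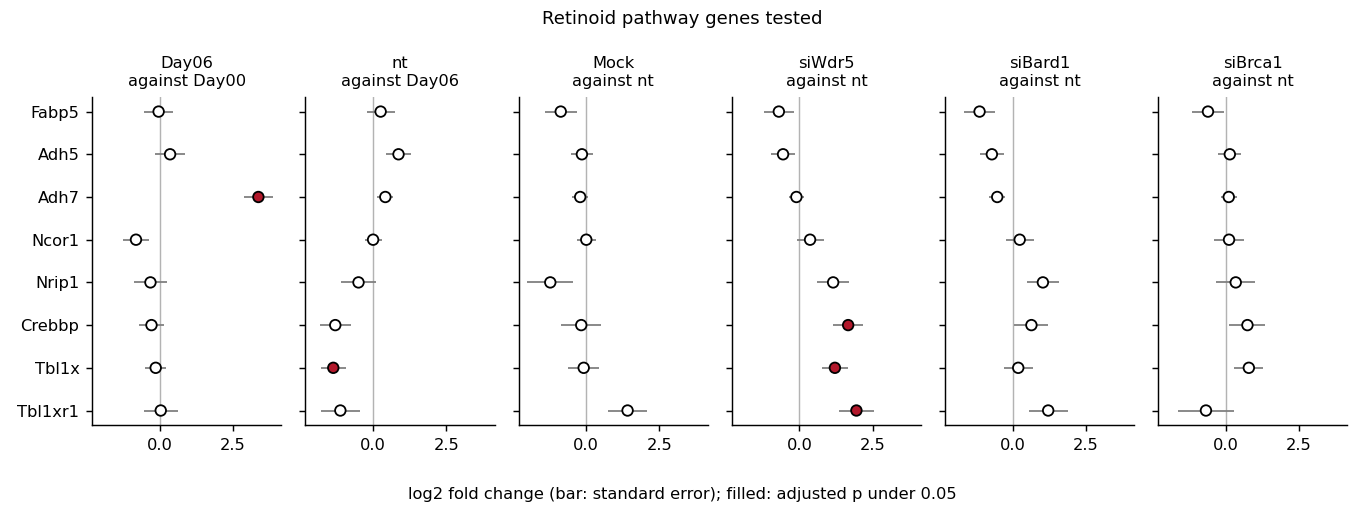
Fitted log2 fold change (horizontal axis, bar of 1 SE) of the 8 retinoid pathway genes that passed the filter (vertical axis) in 6 comparisons, with a filled point where edgeR's adjusted p was under 0.05. Adh7 stands at 3.37 for Day06 against Day00, and 3 coregulator genes are filled for siWdr5 against nt.

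**Figure D5:**
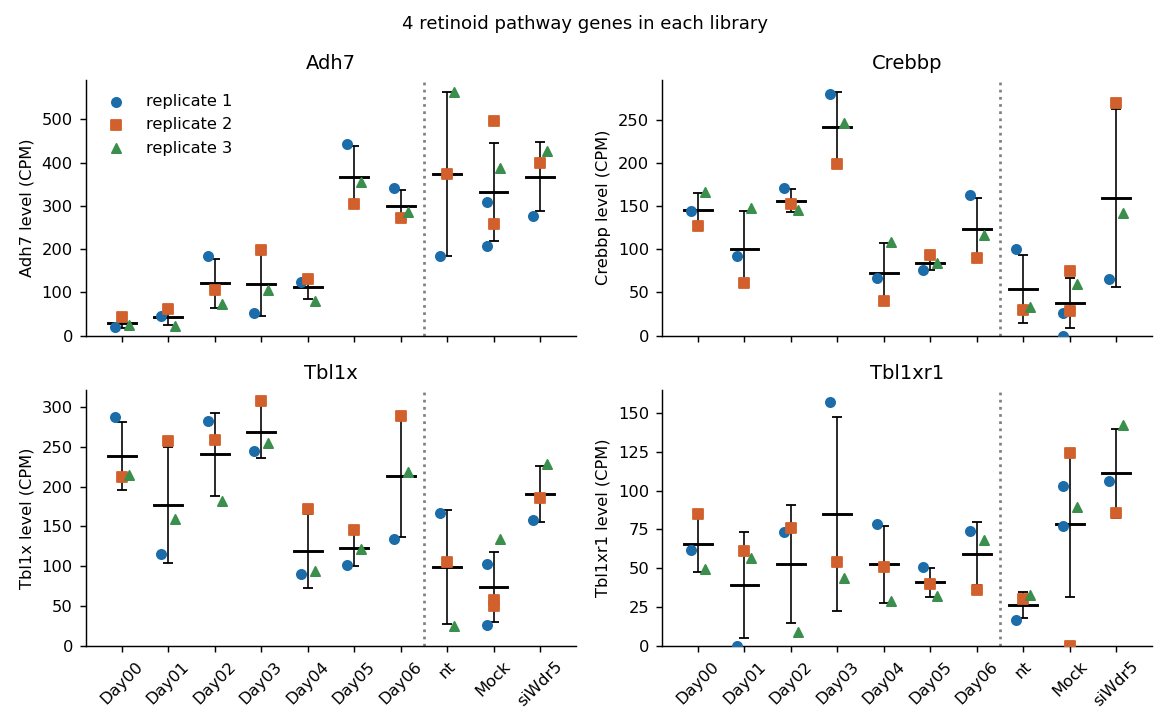
Level in CPM (vertical axis) of Adh7, Crebbp, Tbl1x and Tbl1xr1 in each library by day, and in nt, Mock and siWdr5 (horizontal axis), with a line at the mean and a bar of 1 SD. The Adh7 libraries lie at 20.5 to 42.3 CPM at Day00 and at 271 to 341 CPM at Day06.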

How the data were processed

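Primary MEFs of the time course and of the siRNA screen were profiled by CEL-Seq2. Per the study's methods, the authors aligned reads to mm10 with Bowtie2, assigned them to GENCODE vM13 genes and corrected them by unique molecular identifiers, and the deposited table holds counts per gene and library. A second table holds log2 values that the authors normalised with scran and scater and corrected for batch, and it was used as an alternative only. Libraries were assigned to conditions by column name, and the 127 with at least 10000 counts were kept.

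Counts were fitted with edgeR 4.0.16 (R 4.3.3): TMM scaling, the filterByExpr filter (3013 genes), condition plus replicate as a block, quasi-likelihood tests and Benjamini-Hochberg adjustment over all genes tested, with calls at an adjusted p under 0.05. The replicate number marks a shared sequencing pool in the labels. Deviations from the condition means had a median correlation of 0.0981 within a number and −0.0685 between numbers. Library totals of 29656 to 235292 counts limit the precision of low genes. On data simulated for Day06 against Day00 with 3013 genes, 80.0% of genes changed by a log2 of 2, 34.0% of those changed by a log2 of 1 and 0.107% of unchanged genes were called. Alternatives were DESeq2 1.42.0, limma 3.58.1 on the deposited log2 values, other scalings, no filter, no block, every library and leaving out each replicate. Patterns were compared as log2 CPM with a prior count of 2. Intervals are exact 95% intervals, cover counting error only, and 0 counts were read as up to 3.

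The members and the gene lists were chosen with earlier results of these data known. Named were both members in every condition, the 3 siRNAs with the highest and the 3 with the lowest mean of each member, siWdr5, siBard1 and siBrca1, the 5 genes most like each member in each scope, and the pathway genes called, the others by counts. For Crabp2, which did not pass the filter, no genes were ranked, and the lowest siRNAs were tied. Of the pathway genes reported, 8 of 64 were tested, and some listed genes and siRNAs are not reported here. Of 131 pairs of libraries of the same condition, none agreed within sampling noise, with a chi-square of 1.3 to 5.68 per gene. Other pairs were not compared. Start regions came from RefSeq (GRCm38.p6) and gene models from GENCODE vM21. That of Crabp2 was not used here.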

Additional observations from a re-analysis of the deposited data

How the results depend on the processing

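Leaving out 1 replicate moved the log2 difference of Crabp1 between 0.17 and 0.78 for Day06 against Day00, 0.23 and 1.0 for nt against Day06, −0.44 and 0.54 for Mock against nt, −1.14 and −0.72 for siWdr5, −0.06 and 0.26 for siBard1, −0.59 and −0.05 for siBrca1, −2.32 and −1.75 for siEp300, −1.43 and −0.89 for siPou5f1, 0.53 and 1.16 for sip53 and 0.56 and 0.95 for siWhsc1l1. The siRNAs with a mean above nt numbered 7 to 25 without 1 replicate, those entirely below nt 3 to 9 and those entirely above it 1 to 11. The count above nt was 2 with RLE size factors and 0 with the deposited values. These counts, the last 4 siRNA differences and the alternatives for pathway genes in sip53 and in days other than Day06 were added after seeing the data.

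Pathway calls without 1 replicate ranged from 1 to 2 genes for Day06 against Day00, 0 to 1 for nt against Day06, 0 to 2 for siWdr5 and 2 to 4 among transfected conditions. They were 1 each time among the days and stayed at 0 for Mock, siBard1 and siBrca1. For nt against Day06 the calls were 2 with DESeq2, RLE or totals and 0 without the filter or with limma. For siWdr5 they were 0 without the filter and 0 with limma, and among the days 1 without the filter. Among transfected conditions they were 6 with totals. Without the replicate block, calls were 0 for nt against Day06 and 1 among transfected conditions. The causes were not tested.

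The r of Crabp1 with Crabp2 without 1 replicate was −0.05 to 0.08 over all conditions, −0.63 to −0.46 over the days and −0.21 to 0.05 over transfected conditions. Of the 5 nearest genes, 2 to 4, 0 to 2 and 2 to 4 were kept in these scopes. Ranks kept 3, 3 and 1, the deposited log2 values 2, 3 and 2, and over the days a prior count of 0.5 and RLE kept 3 each. No log2 difference of Crabp2 could be given, with at most 3 counts in each group compared.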
